A study of Homo sapiens with 27 samples.

Results

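The 10 genes described here belong to the canonical Wnt pathway: LGR5, RNF43, ZNRF3, APC, AXIN1, AXIN2, CTNNB1, LEF1, TCF7 and TCF7L1. They were chosen by name, and each was given the bounds of its RefSeq gene on GRCh38 plus 10 kb on both sides. The quantity measured in these windows was the number of distinct transposon insertion sites. The windows are 10 of the 20037 protein-coding gene windows counted, and they held 4660 of the 5365836 sites summed over all 27 libraries, at 2172 distinct positions.

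The cells were HCT116, an established human colorectal carcinoma line, carrying a self-reporting transposon, whose own promoter transcribes into the flanking genome so that its position can be read from RNA. All cultures received puromycin at 3 µg/ml over 2 weeks, so only cells that kept a transposon were sampled. The 9 groups had 3 replicates each. Libraries of the wild-type transposon used piggyBac (called WT_PB), its hyperactive form (WT_hyPB), its re-engineered form (WT_rePB), a form both re-engineered and hyperactive (WT_rehyPB), or piggyBat (WT_PBat). A short transposon was paired with wild-type piggyBac (short_PB) or its hyperactive form (short_hyPB), and a symmetric transposon with the re-engineered (sym_rePB) or the re-engineered hyperactive form (sym_rehyPB). The labels do not say what was changed in the re-engineered enzymes or in the short and symmetric transposons, nor whether replicates were separate cultures, so p-values measure the spread between libraries, which may be technical. Insertion positions carry no expression level, so the markers of colorectal cells were not checked here.

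In Wnt signalling, a destruction complex built on APC and the axins marks β-catenin, the product of CTNNB1, for degradation. A Wnt ligand at its receptors stops this, and β-catenin then drives target genes together with factors of the TCF/LEF family. The pathway keeps intestinal stem cells dividing and is switched on by mutation in most colorectal cancers. HCT116 cells carry an activating mutation of CTNNB1 itself.

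The 12 libraries of the wild-type transposon with a piggyBac form listed 336333 to 570362 sites each and are called deep. The other 15 listed 2814 to 9212 sites and are called shallow. No shallow library came near a deep one, so transposon type, piggyBat and depth cannot be told apart by level alone. All levels are therefore given as sites per 10000 sites of the same library. Some libraries were not independent. In the 10 windows, WT_hyPB replicates 1 and 2 shared 285 sites, 73.5% of the first library's and 74.8% of the second's, whereas replicate 3 shared 34.0% to 35.5% of its sites with either. WT_PBat replicates 1 and 3 shared 4 of their 8 and 11 sites and shared none with replicate 2. With each such pair merged into 1 library, no call of a member changed.

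The TTAA tetranucleotide is the target of piggyBac-type transposases, and it could be checked where RefSeq promoter windows gave sequence. Of 29322 sites in those windows, 28643 (97.7%) began on TTAA. The promoters of RNF43 and APC are printed because their single TTAA was used very differently. Each line gives the 250 bases before an annotated start, 5′ to 3′ on the gene's strand, with the TTAA that was hit in capitals (RefSeq, GRCh38).
RNF43, chr17:58417535-58417784, minus strand: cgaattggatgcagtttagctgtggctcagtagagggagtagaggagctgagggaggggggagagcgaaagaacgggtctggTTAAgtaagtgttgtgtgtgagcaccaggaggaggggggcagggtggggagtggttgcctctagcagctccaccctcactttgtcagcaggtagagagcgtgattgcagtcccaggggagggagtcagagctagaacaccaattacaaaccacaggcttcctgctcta
APC, chr5:112707248-112707497, plus strand: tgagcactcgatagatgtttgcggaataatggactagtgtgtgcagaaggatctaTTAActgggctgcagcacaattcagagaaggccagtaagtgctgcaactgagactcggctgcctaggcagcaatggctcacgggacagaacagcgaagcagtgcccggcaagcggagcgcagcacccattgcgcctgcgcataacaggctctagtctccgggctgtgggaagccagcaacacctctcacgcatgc

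The RNF43 TTAA, at position 58417699 (−168 from the start), was hit in 17 of 27 libraries. These were all 12 deep libraries and 5 shallow ones, from short_PB and WT_PBat. Insertions lay there in both orientations. Its peak height, the highest read coverage of the insertion's peak, was 9 to 153 with a median of 74 in the deep libraries and 7 to 33 with a median of 21 in the shallow ones. The APC TTAA (−195 from the start) was hit in 1 library, and the window of a second annotated APC start held no TTAA. A second annotated RNF43 start also had 1 TTAA before it, at position 58402733, which was hit in 6 libraries. CTNNB1 had 1 TTAA in its promoter window and LEF1 had 4, and no library listed any of them. The promoter windows of AXIN1, TCF7 and TCF7L1 held none. For scale, 46.1% of the 35116 RefSeq promoter windows of the same length contain a TTAA, which reads the same on both strands. LGR5, AXIN2 and ZNRF3 were not matched in the promoter table.

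Over all 10 windows, the mean levels of the deep groups lay between 8.37 and 9.25 sites per 10000. WT_hyPB had the highest mean, 9.25 ± 0.20 sites per 10000, followed by WT_rehyPB with 8.78 ± 0.56, WT_PB with 8.46 ± 0.21 and WT_rePB with 8.37 ± 0.60 (SD, n = 3 each). The WT_hyPB libraries (9.02 to 9.40) all lay above the WT_PB libraries (8.23 to 8.63). This difference was not tested, and how often other sets of 10 genes separate in this way was not computed. Among the shallow groups WT_PBat had 12.7 ± 1.69, short_PB 9.12 ± 0.74, sym_rehyPB 6.24 ± 4.29, sym_rePB 5.38 ± 1.58 and short_hyPB 5.03 ± 2.76 (SD, n = 3 each). Those shallow libraries held only 1 to 11 member sites each. Per unit length, 8 of the 10 windows lay above the median coding window in the pooled deep libraries, and RNF43 and ZNRF3 were the highest. Densities here and below were not corrected for the TTAA content or the copy number of a window.

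**Figure D1:**
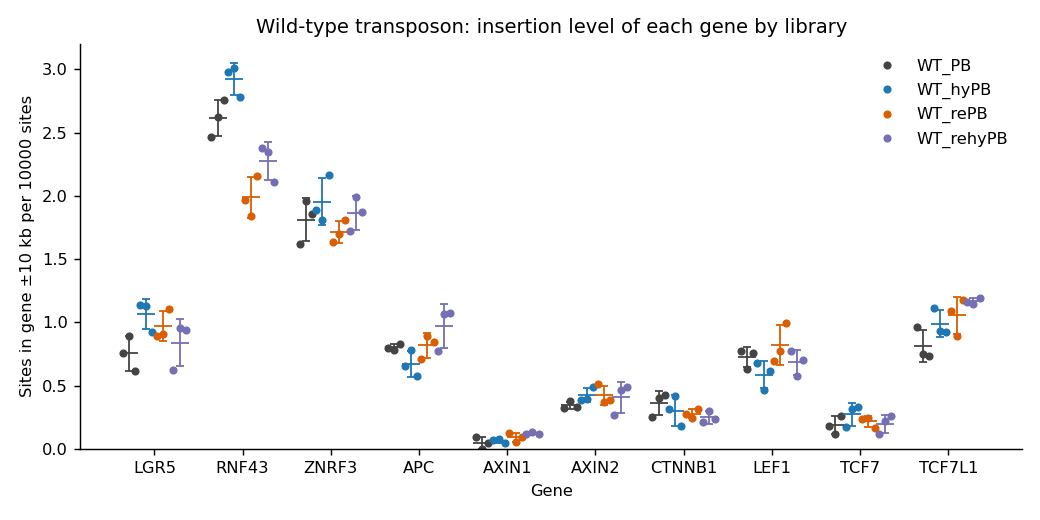
Sites per 10000 library sites (vertical axis) in each gene window for the 12 libraries of the wild-type transposon; points are libraries, bars the mean ± SD (n = 3). RNF43 was highest in every group, between 1.84 and 3.01, and its WT_rePB and WT_rehyPB libraries lay below the WT_PB and WT_hyPB libraries of their pairs.

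RNF43 and ZNRF3 are the paralogous membrane ubiquitin ligases that remove Frizzled receptors from the cell surface and so damp Wnt signalling. RNF43, on chromosome 17 from 58352500 to 58417534, was the most heavily hit member. The sites counted there were 108, 91 and 116 in WT_PB, 123, 123 and 126 in WT_hyPB, 108, 105 and 117 in WT_rePB and 80, 86 and 90 in WT_rehyPB. As levels these were 2.62 ± 0.14, 2.92 ± 0.13, 1.99 ± 0.16 and 2.28 ± 0.15 sites per 10000 (SD, n = 3 each). The lowest WT_hyPB library lay above the highest WT_PB library, as it did for 11.2% of tested genes, and both re-engineered groups lay entirely below their partners. Pooled over the deep libraries, RNF43 had 2.84 sites per 10000 per 100 kb against 0.40 for the median coding window. That placed it at rank 74 of 20037, and it ranked between 69 and 83 in each deep group taken alone.

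ZNRF3, on chromosome 22 from 28883572 to 29057488, followed. Its sites numbered 71, 68 and 78 in WT_PB, 78, 74 and 98 in WT_hyPB, 90, 97 and 98 in WT_rePB and 58, 73 and 80 in WT_rehyPB. The levels were 1.81 ± 0.17, 1.95 ± 0.18, 1.71 ± 0.086 and 1.86 ± 0.13 sites per 10000 (SD, n = 3 each), and groups next to each other in order of level overlapped. Its pooled density of 0.94 sites per 10000 per 100 kb lay at the 92.0 percentile of coding windows. The ZNRF3 window spans 194 kb and the RNF43 window 85.0 kb.

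LGR5, on chromosome 12, is the stem-cell receptor for R-spondins, which keep RNF43 and ZNRF3 away from Frizzled. It had 33, 31 and 26 sites in WT_PB, 47, 46 and 42 in WT_hyPB, 49, 52 and 60 in WT_rePB and 21, 35 and 40 in WT_rehyPB. The levels were 0.76 ± 0.14, 1.06 ± 0.12, 0.97 ± 0.12 and 0.84 ± 0.19 sites per 10000 (SD, n = 3 each). The WT_hyPB libraries all lay above the WT_PB libraries, as for 11.2% of tested genes, while WT_rehyPB and WT_rePB overlapped. The density lay at the 68.2 percentile.

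The destruction complex spanned a wide range. APC, the scaffold most often mutated in colorectal cancer, had 26 to 35 sites per library in WT_PB and WT_hyPB and 26 to 51 in the re-engineered groups. Its levels were 0.80 ± 0.027, 0.67 ± 0.11, 0.82 ± 0.096 and 0.97 ± 0.17 sites per 10000 in WT_PB, WT_hyPB, WT_rePB and WT_rehyPB (SD, n = 3 each), with groups next to each other in order of level overlapping. AXIN2, an axin that is itself a Wnt target, had 9 to 28 sites per library in 53.1 kb and lay at the 85.0 percentile of density, the third highest of the members. Only 52.8% of its deep-library sites lay in the gene, which makes up 62.3% of the window. The upper flank held 6.6 sites per kb against 3.39 in the gene, so the AXIN2 density is partly that of its flank. AXIN1, the constitutive axin, had 0 to 7 sites per library, 43 in all, and lay at the 12.8 percentile. The 2 axins therefore lay far apart, with pooled densities of 0.76 and 0.10 sites per 10000 per 100 kb (95% exact Poisson intervals 0.66 to 0.87 and 0.069 to 0.13, counting error only). For AXIN2 the WT_hyPB libraries (mean 0.42 sites per 10000) all lay above the WT_PB libraries (0.34), as for 11.2% of tested genes. For AXIN1 the WT_rehyPB libraries (mean 0.12) all lay above the WT_hyPB libraries (0.063), on few sites and below the filter used for such shares. Their other pairs overlapped.

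CTNNB1, on chromosome 3, had 7 to 18 sites per library and a level that ran from 0.25 ± 0.048 in WT_rehyPB to 0.36 ± 0.096 sites per 10000 in WT_PB (SD, n = 3 each), with overlap throughout. Of the factors that β-catenin acts with, TCF7L1, mostly a repressor, had 26 to 64 sites per library, LEF1 had 19 to 54 and TCF7, encoding TCF-1, had 4 to 15. For TCF7L1 the level was 1.17 ± 0.024 in WT_rehyPB, 1.06 ± 0.15 in WT_rePB, 0.99 ± 0.11 in WT_hyPB and 0.82 ± 0.13 in WT_PB (sites per 10000; SD, n = 3 each), and of the 4 pairs tested below WT_rehyPB against WT_hyPB alone did not overlap, as was so for 10.8% of tested genes in that direction. The mean level of LEF1 ran from 0.59 in WT_hyPB to 0.82 in WT_rePB. That of TCF7 ran from 0.19 in WT_PB to 0.27 in WT_hyPB, and both genes overlapped in each of the 4 pairs. In density TCF7L1, LEF1, CTNNB1 and TCF7 lay at percentiles 64.2, 63.2, 60.6 and 45.6, all nearer the middle of the genome than RNF43.

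Re-engineering of the transposase was tested over 2 pairs, WT_rePB against WT_PB and WT_rehyPB against WT_hyPB, in a limma voom fit to 9129 genes with at least 10 sites per library on average. RNF43 fell by 0.38 on the log2 scale (SE 0.07, limma adjusted p = 8.59e-05). Its level was 0.760 times that of the partner in the parental pair and 0.779 times in the hyperactive pair, and neither pair overlapped. Libraries lay apart in this direction for 13% of tested genes in the parental pair and 10.9% in the hyperactive pair. RNF43 was the 1 member called of the 8 tested, and 6.55% of all genes were called in this comparison, 4.05% lower and 2.5% higher. AXIN1 and TCF7 did not reach the filter.

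The numbers of sites in the libraries moved differently in the 2 pairs. WT_rePB libraries had more sites than WT_PB (554208 ± 14456 against 401738 ± 48195; SD, n = 3), and WT_rehyPB libraries had fewer than WT_hyPB (376588 ± 46407 against 424836 ± 24675). Among the 336333 tallest sites of each deep library, a setting chosen after seeing the data, the RNF43 ratios were 0.843 in the parental and 0.701 in the hyperactive pair. Over 20 alternative settings the log2 difference ran from −0.41 to −0.35, with limma or quasi-Poisson adjusted p up to 0.00317.

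The median log2 difference of the 8 members was 0.07, against −0.01 over all genes tested. An unadjusted p under 0.05 was found for 3 of the 8 members and 1976 of all 9129 genes, and 2 of the 3 members did not pass after adjustment. TCF7L1 differed by 0.30 (SE 0.11, limma adjusted p = 0.0771) and APC by 0.28 (SE 0.12, limma adjusted p = 0.139), both toward the re-engineered forms. TCF7L1 passed when WT_PB replicate 1 was left out (0.36, limma adjusted p = 0.0487), when WT_rePB replicate 2 was left out (0.36, adjusted p = 0.0354) and with peaks of height 10 and above (0.38, adjusted p = 0.0435). For ZNRF3, the paralogue of RNF43, the difference was −0.07 with a 95% interval of −0.22 to 0.08.

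**Figure D2:**
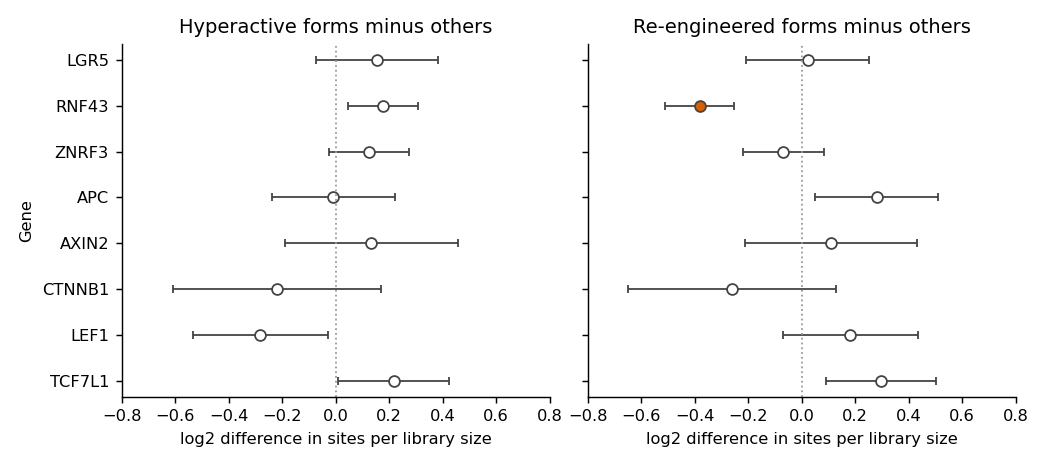
Log2 difference in sites relative to library size (horizontal axis, 95% interval) for the 8 tested members, hyperactive forms on the left and re-engineered forms on the right; filled points passed an adjusted p of 0.05 in limma. RNF43 under re-engineering, at −0.38, is the one filled point.

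The other Wnt pathway genes were counted in the same way. Of 74 listed genes 31 were tested, and with re-engineering 5 fell and 0 rose, with a median log2 difference of −0.04. Over all 9129 genes 4.05% were called lower and 2.5% higher. Whether the list differs from all genes was not tested. FZD7, a Frizzled receptor, differed by −0.57 (SE 0.18, limma adjusted p = 0.0357), DKK1, a secreted antagonist, by −0.45 (SE 0.09, adjusted p = 0.000528) and the ligand gene WNT16 by −0.41 (SE 0.13, adjusted p = 0.0428). The other two were CSNK1A1, casein kinase 1α of the destruction complex, at −0.41 (limma adjusted p = 0.00777), and TCF7L2, the main TCF factor of the colon, at −0.36 (limma adjusted p = 1.20e-06). TCF7L2 held 495 sites over the WT_PB libraries and 499 over the WT_rePB libraries, which were larger.

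For the hyperactive transposase, tested over WT_hyPB against WT_PB and WT_rehyPB against WT_rePB, limma called 0 of the 8 members, and 2.5% of all genes were called. An unadjusted p under 0.05 was found for 3 of the 8 and for 1566 of all 9129 genes. The quasi-Poisson fit also called 0 members. RNF43 differed by 0.18 (SE 0.07, limma adjusted p = 0.141), with ratios of 1.12 and 1.15 in the 2 pairs. In the parental pair its libraries did not overlap, as stated above. TCF7L1 differed by 0.22 (SE 0.11, limma adjusted p = 0.278) and LEF1 by −0.28 (SE 0.13, adjusted p = 0.244). The members' median was 0.13, against 0.04 over all genes. Among the 31 other pathway genes TCF7L2 rose by 0.22 (limma adjusted p = 0.0125) and DKK2, a Dickkopf antagonist, fell by 0.70 (limma adjusted p = 0.041).

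LGR5, APC, AXIN2 and TCF7 went opposite ways in the 2 pairs. The mean level of LGR5 with the hyperactive form was 1.41 times that without in the parental pair and 0.865 times in the re-engineered pair. For APC the ratios were 0.834 and 1.19, for AXIN2 1.23 and 0.967, and for TCF7 1.46 and 0.918. The difference between pairs, re-engineered minus parental, was −0.70 for LGR5 (SE 0.23, limma adjusted p = 0.228) and 0.54 for APC (SE 0.23, adjusted p = 0.406), so neither passed. AXIN2 did not pass either (−0.33, SE 0.33, limma adjusted p = 0.771), and TCF7 did not reach the filter. This test of the difference between pairs was not among those first planned. It called 6 of 9129 genes (0.0657%), none of them a member.

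The shallow groups were read mainly through RNF43. It had 5, 5 and 7 sites in short_PB, 1, 1 and 0 in short_hyPB, 0 in each sym_rePB library, 1, 0 and 1 in sym_rehyPB and 6, 3 and 4 in WT_PBat. As levels these were 6.19 ± 1.22 sites per 10000 in short_PB, 5.74 ± 2.27 in WT_PBat, 1.57 ± 1.37 in sym_rehyPB and 0.93 ± 0.81 in short_hyPB (SD, n = 3 each). Pooled, RNF43 had 3.86 sites per 10000 with the short transposon (19 sites, 95% exact Poisson interval 2.32 to 6.02), 0.93 with the symmetric transposon (2 sites, 0.11 to 3.36) and 5.66 with piggyBat (13 sites, 3.02 to 9.68), counting error only. These intervals count every site, although the 13 piggyBat sites lay at 10 distinct positions and the 19 short-transposon sites at 13. The deep pool had 2.41. In density RNF43 lay at the 97.8 percentile of coding windows with the short transposon and at the 97.2 percentile with piggyBat.

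**Figure D3:**
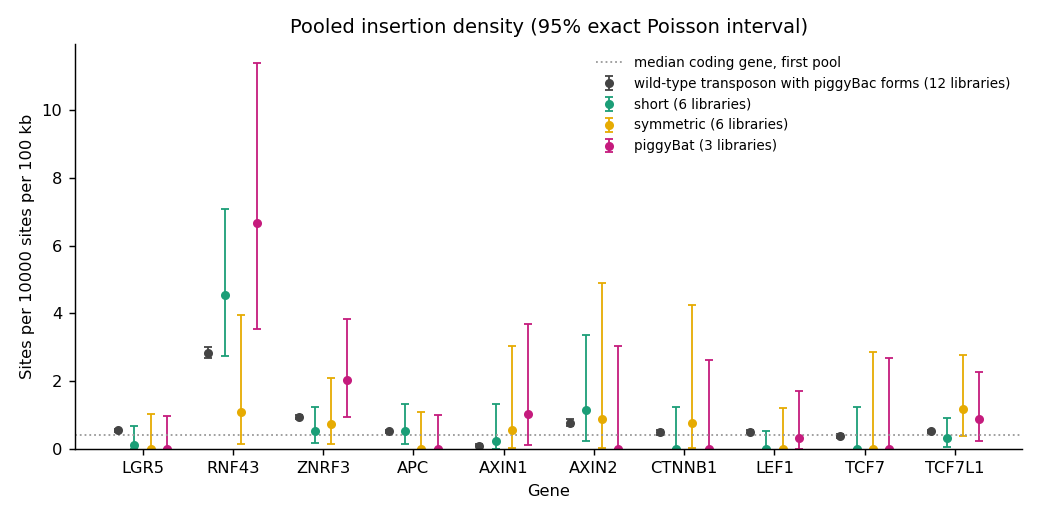
Pooled sites per 10000 sites per 100 kb (vertical axis) with 95% exact Poisson intervals for each gene and transposon system; the dotted line is the median coding window of the deep pool, 0.40. RNF43 is the highest gene in the deep, short-transposon and piggyBat pools, at 2.84, 4.53 and 6.66.

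Every short_PB library lay above every short_hyPB library for RNF43, as was so for 3.52% of the 454 genes with at least 2 sites per library on average. The difference was 5.26 sites per 10000 (exact two-sided permutation p = 0.1, the smallest that 3 against 3 libraries allow). Any full separation of the libraries gives this p, so it adds nothing to the separation itself. Neither this comparison nor the test of the difference between transposons below was among those first planned. With the wild-type transposon the hyperactive form had the higher level. The difference between transposons in the hyperactive effect was −2.92 on the log2 scale (SE 1.08, quasi-Poisson adjusted p = 0.738), which did not pass, and this test called 1 of 4412 genes (0.0227%).

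For the shallow comparisons genes were filtered on their mean over deep and shallow libraries together, and members passed through their deep-library sites. In quasi-Poisson fits with library size as offset, no member was called in the shallow comparisons. With the short transposon it was 0 of 6 tested, with 9.36% of all genes called, and 1 of 6 members and 1280 of 4412 genes had an unadjusted p under 0.05. With the symmetric transposon it was 0 of 6, with 4.05% of genes called, and 0 members and 853 of 4911 genes unadjusted. With piggyBat it was 0 of 6, with 6.44% of genes called, and 1 member and 936 of 4284 genes unadjusted. For RNF43 the log2 difference was 0.48 with the short transposon (95% interval −0.17 to 1.14, quasi-Poisson adjusted p = 0.394), −1.21 with the symmetric transposon (−3.21 to 0.80, adjusted p = 0.333) and 1.12 with piggyBat (0.32 to 1.92, adjusted p = 0.202). Other fits called some members. For piggyBat the limma voom and trend fits called RNF43 higher, at 1.25 and 1.23 (limma adjusted p = 0.0432 and 0.0108), and voom called ZNRF3 higher, at 1.43 (limma adjusted p = 0.030). Limma trend called TCF7L1 higher with the symmetric transposon, at 1.34 (limma adjusted p = 0.0139). Those limma fits also called far more of all genes than the quasi-Poisson fit did. With the symmetric transposon they called most of the 4911 genes tested, and the counts are given at the end. Voom also gave false calls on simulated data for these comparisons. The limma calls of members are therefore not taken as results. Median-of-ratios scaling lowered the differences of a comparison by nearly the same amount in the named members, and the median of all genes went from −0.40 to −1.80 with the short transposon, from −0.99 to −3.95 with the symmetric transposon and from −0.52 to −2.80 with piggyBat. Under that shift the quasi-Poisson fit called LGR5, ZNRF3 and TCF7L1 lower with the short transposon (−3.55, −2.29 and −1.98, adjusted p = 0.0019, 0.000511 and 0.0123), RNF43 and ZNRF3 lower with the symmetric transposon (−4.14 and −3.31, adjusted p = 3.48e-05 and 0.000112) and LEF1 lower with piggyBat (−3.02, adjusted p = 0.0222). That scaling called 2792 of 4412 genes with the short transposon, 4497 of 4911 with the symmetric transposon and 2926 of 4284 with piggyBat. Its calls of members are therefore not read as results about these genes. With this scaling RNF43 stood at −0.93 with the short transposon and −1.16 with piggyBat, still above the median of all genes in both.

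ZNRF3 had 2, 5 and 2 sites in WT_PBat, a pooled 3.92 sites per 10000 (95% exact Poisson interval 1.79 to 7.44, counting error only), against 1.83 in the deep pool. Its piggyBat difference was 1.12 on the log2 scale (SE 0.49, quasi-Poisson adjusted p = 0.259). TCF7L1 had 12 sites over the 15 shallow libraries. Each of the remaining 7 members had at most 4, and TCF7 had none among 93726 shallow sites, which allows up to 0.32 sites per 10000 by a floor of 3 counts over these libraries, or 0.39 by the exact 95% Poisson limit. Of the other pathway genes, TCF7L2 rose with piggyBat by 2.95 (SE 0.18, quasi-Poisson adjusted p = 0.000319), from 4.12 ± 0.11 to 31.7 ± 2.38 sites per 10000 (SD, n = 3). The ligand gene WNT2B rose with the symmetric transposon by 3.07 (SE 0.53, quasi-Poisson adjusted p = 0.0183) on 8 sites, 6 in sym_rePB and 2 in sym_rehyPB. Of all 4911 genes in that comparison, 186 were called higher and 13 lower. TNKS, a tankyrase that turns over axin, was called lower with the short transposon (quasi-Poisson adjusted p = 0.0372) with 0 sites there. TNKS passed the filter only through the deep libraries, with 132 sites in WT_PB and 134 in WT_hyPB. Its call is therefore not taken as a result.

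Along RNF43 the sites were unevenly spread. In the deep libraries the flank before the start held 18.3 sites per kb, the gene 16.6 and the flank beyond its end 1.1. The densest 5 kb, from 5 to 10 kb after the start, held 206 of 1273 sites (16.2%) and was hit in all 12 libraries. The region from 10 to 45 kb held 48.9% of the sites, and everything beyond 45 kb held 4.56%. The window also contains parts of the neighbouring genes SUPT4H1 and HSF5.

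The regions were set after the profile was seen, so their values are given without a test. Within the first 10 kb of RNF43 the level was 0.96 ± 0.12 sites per 10000 in WT_PB and 0.53 ± 0.058 in WT_rePB, a ratio of 0.552, and 1.00 ± 0.082 in WT_hyPB and 0.69 ± 0.078 in WT_rehyPB, a ratio of 0.690 (SD, n = 3 each). From 10 to 45 kb the ratios were 0.817 and 0.811. In the flank before the start they were 0.990 and 0.705, and beyond 45 kb, on 58 sites, 1.28 and 1.73.

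**Figure D4:**
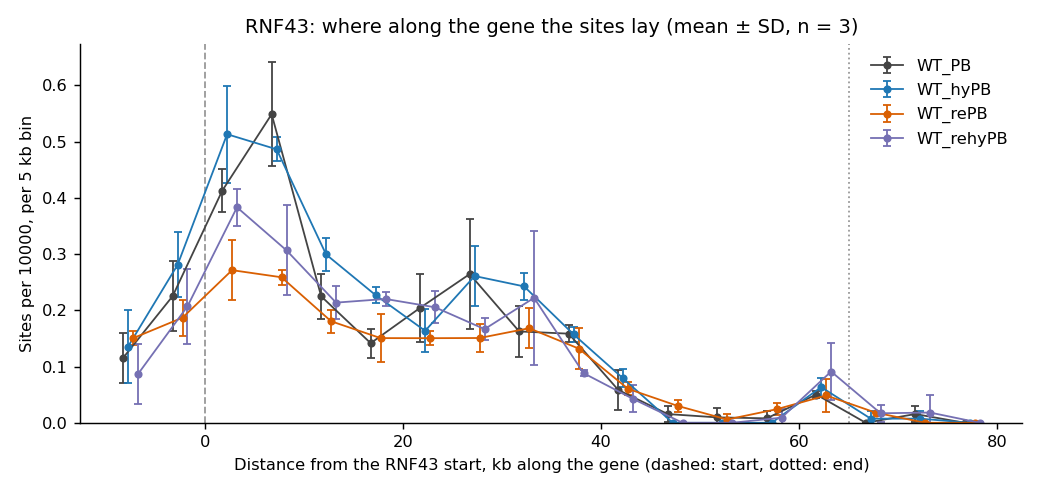
Sites per 10000 in 5 kb bins (vertical axis, mean ± SD, n = 3) against distance from the RNF43 start in kb, for the 4 deep groups. The levels are highest just after the start, where WT_rePB is lowest, and are lowest from 45 to 60 kb within the gene, with a higher level again in the last bin before its end.

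Of the 6 other members with a listed strand, APC alone had its densest 5 kb at the start, with 34 of 429 sites (7.93%). AXIN2 had 26.9% of its 212 sites between 25 and 30 kb along its window's gene coordinates, counted from the lower end because its strand was not given. ZNRF3 had 7.58% and TCF7L1 8.46% in their densest bins. TCF7 differed in that 37.6% of its 117 sites lay in the gene, which makes up 66.7% of the window. Its upper flank held 62 sites, and the densest 5 kb, with 33 sites, lay over the neighbouring gene SKP1. The level given for TCF7 is therefore largely that of its flank. 

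Sites in RNF43 recurred between libraries. Of its 327 positions in the deep libraries 28.1% were listed in 1 library, 87 in 6 or more and 5 in all 12. ZNRF3 followed with 50.8% in 1 library and 26 positions in 6 or more. Over all 10 genes 54.8% of 2156 positions were in 1 library, and over the whole genome 63.9% of 2940501. A mean RNF43 position was listed in 3.89 deep libraries, against 2.13 over all members and 1.79 over the genome. RNF43 also had the highest share of positions hit in both orientations, 40.4% of 329 over all libraries, with 20.1% of 2172 over all members.

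**Figure D5:**
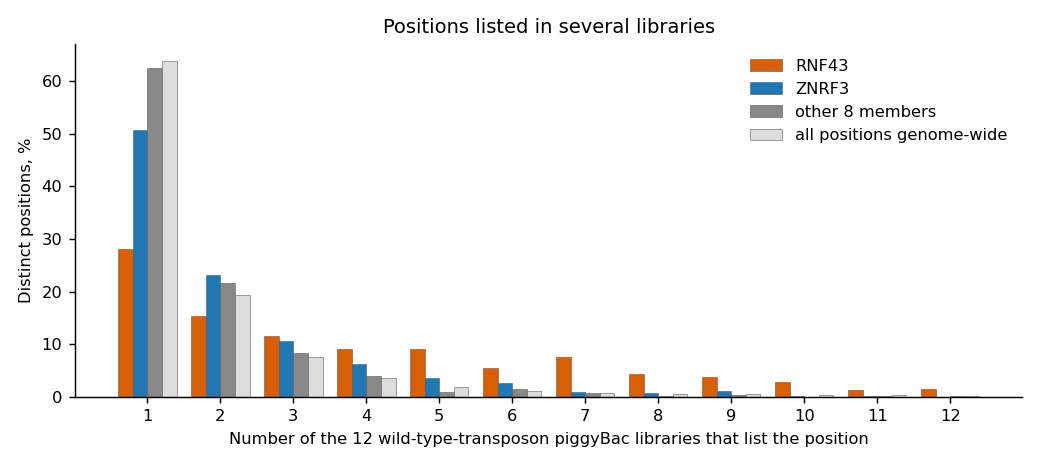
Share of distinct positions in % (vertical axis) by the number of the 12 deep libraries that list them, for RNF43, ZNRF3, the other 8 members and the whole genome. RNF43 has the lowest share in 1 library, 28.1%, against 63.9% genome-wide.

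Besides the promoter site, RNF43 positions 58398813 and 58406156, both inside the gene, were listed in 14 and 13 libraries. TCF7L1 position 85248874, inside the gene, was listed in all 12 deep libraries and no shallow one. ZNRF3 positions 29039238 and 28977527 were each in 11 libraries, as was APC position 112697498, which is the first base of the window 10 kb before the gene. The shallow libraries together hit 61 positions, and 45 of these were also listed in a deep library. For RNF43 it was 20 of 22. The same share over the whole genome was not computed, so these counts are not read as particular to these genes. Whether the libraries that share many positions, WT_hyPB replicates 1 and 2 and WT_PBat replicates 1 and 3, came from the same cells is not stated.

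Orientation relative to transcription could be read for the 7 members with a listed strand. The share of deep-library insertions inside the gene that pointed along it was 25.1% of 347 in APC, 27.4% of 113 in CTNNB1, 39.6% of 351 in LEF1, 40.2% of 518 in TCF7L1 and 41.3% of 1218 in RNF43. AXIN1 had 15.8% of 38 and TCF7 52.3% of 44. Over all coding genes with a listed strand it was 35.7% to 37.9% in the 4 deep groups. APC lay between 17.9% and 27.6% in every deep group and so below the genome's share in each, and RNF43 lay between 39.0% and 45.5% and so above it. These are descriptions, since insertions at recurring positions are not independent.

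By correlation over the 9 group means of log2(sites per 10000 + 0.1), the coding genes most like RNF43 among 4081 compared were ATF7-NPFF (Pearson r = 0.989), ATF7 (r = 0.989) and GRAMD1B (r = 0.980). ATF7-NPFF and ATF7 overlap and share sites. All 3 had 0 sites in sym_rePB and levels above their WT_PB level in short_PB and WT_PBat, and the 9 points share 4 groups of deep libraries and 5 of shallow ones.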

How the data were processed

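Per the submitters' processing notes, reads were handled with cutadapt 3.4 and HISAT2 2.2.1.0 on hg38 and GRCh38.p5. The peak caller is not given in the sources used here. The deposited files hold 1 peak list per library, called separately, with coverage per peak as signal (a sum and a maximum, the peak height). The values show no scaling by library total. The lowest height in any file was 5. Each file also repeats 1 constant on every row (8118085 to 12051190 deep, 142666 to 256608 shallow), which was read as a library total, though no label says so. Reads were PCR products without molecular identifiers, so intervals cover counting error only.

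A site was the start of a peak on the plus strand or its end minus 3 on the minus strand, counted once per library. Genes came from RefSeq GRCh38.p14. Sites in gene bounds ± 10 kb were fitted over all coding genes with a mean of at least 10 sites per library, with library size taken as the total of distinct sites, in limma 3.58.1 (R 4.3.3), with Benjamini-Hochberg adjustment. The voom fit first planned for deep against shallow libraries gave false calls on simulated data. A quasi-Poisson fit with log library size as offset replaced it there, and voom is kept as an alternative. Differences are log2. Python 3.11.15 with scipy 1.17.1 gave exact Poisson intervals and permutation tests. All 10 members were named. Of the other pathway genes, up to 3 higher and 3 lower with the largest change past the threshold were named per comparison, and CSNK1A1 and TCF7L2 under re-engineering were added after their values were seen. Members and lists were chosen with earlier results of these data known. Same-numbered libraries did not deviate together (mean r −0.0003 over 18 pairs, −0.02 to 0.03), so numbers were not used as a block.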

Additional observations from a re-analysis of the deposited data

How the results depend on the processing

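The fall of RNF43 with re-engineering kept its direction and its side of the threshold under all 20 alternatives. The numbers of genes called moved more. For the hyperactive form, 228 genes were called (117 higher, 111 lower), against 44 with the quasi-Poisson fit, 142 with a filter of 2 sites, 87 with peaks of height 10 and above and 97 with linked libraries merged, and 90 to 233 leaving out 1 library. Median-of-ratios scaling gave 47 higher and 178 lower. For re-engineering, 598 genes (228 higher, 370 lower) became 191 with the quasi-Poisson fit (40 higher, 151 lower), 396 by gene bounds alone (207 higher, 189 lower), 342 with linked libraries merged, and 354 to 595 leaving out 1 library. For the short transposon, 413 became 1209 with limma trend, 2792 with median-of-ratios scaling, 34 with height 10 and above, 179 by gene bounds alone, 15 of 24 tested with equal numbers of tallest sites, and 263 to 374 leaving out 1 library. For the symmetric transposon, 199 became 3748 with limma voom, 4128 with trend, 4497 with median-of-ratios scaling, 448 with a filter of 2, 33 with height 10 and above, 61 by gene bounds alone, 2 of 10 tested with tallest sites, and 147 to 174. For piggyBat, 276 became 1210, 1170, 2926, 57 (height), 124 (bounds) and 19 of 24 tested (tallest sites) in the same order, and 49 to 196. The cause was not tested.

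With the replicate number as a block, which does not pair these libraries, the counts were 204, 571, 237, 116 and 0 in the order above, and RNF43 under re-engineering stayed at −0.38 (limma adjusted p = 0.000208).

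Directions turned for small or shallow differences. The hyperactive difference of APC (−0.01) became 0.035 with the quasi-Poisson fit, 0.11 with height 10 and above, and −0.066 to 0.059 leaving out 1 library. The re-engineering difference of ZNRF3 (−0.07) became 0.034 with height 10 and above, and that of LGR5 (0.02) ran down to −0.046 leaving out 1 library. With the short transposon, TCF7L1 became 0.22 with voom and 0.23 with trend, median-of-ratios scaling gave −1.27 for APC and −0.93 for RNF43, height 10 and above gave −0.13 for RNF43 and 0.49 for ZNRF3, and APC ran down to −0.55 leaving out 1 library. With the symmetric transposon, ZNRF3 became 0.45 with voom and with trend, and TCF7L1 −1.89 with median-of-ratios scaling. With piggyBat, LEF1 became 0.36 with voom and 0.37 with trend, and median-of-ratios scaling gave −1.16 for RNF43 and ZNRF3 and −1.19 for TCF7L1. Of the 40 member levels in deep groups, 22 moved by over 1 SD by gene bounds alone, 11 with height 10 and above and 7 with equal numbers of tallest sites. Genes with no site in an arm have no bounded difference and were left out. Shallow libraries held 0 to 7 sites per member, which sets the width of their intervals.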
